A study of Mus musculus with 8 samples.

Results

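Cytosolic heat shock genes encode the chaperones that keep proteins folded in the cytosol and nucleus, together with HSF1, the transcription factor that induces many of them. The set described here was a fixed list of 10 genes, Hsf1, Hspa1a, Hspa1b, Hspa8, Hsph1, Dnajb1, Hsp90aa1, Hsp90ab1, Hspb1 and Bag3, among 55414 genes counted, and all 10 were matched by identifier. Their RNA was measured by bulk RNA-seq in Paneth cells (PCs), the secretory cells of the small intestinal crypt that release antimicrobial peptides and store zinc in their granules. PCs were sorted by FACS from 8 mice, which the methods of the study give as C57BL/6J, each library holding the cells of 1 mouse. For 7 days 4 mice drank Milli-Q water, which is purified laboratory water, and 4 mice drank water with 25 mM ZnSO4. The labels give no age or sex. By their labels all 8 mice then received tumor necrosis factor (TNF), an inflammatory cytokine, 3 hours before sampling, and the design has no group without TNF. The TNF target genes of 1 library, zinc replicate 3, went against that label. The comparison asks whether the drinking water moved the heat shock genes of PCs that had met TNF.

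In a resting cell HSF1 is held inactive by chaperones. When misfolded proteins occupy these chaperones, HSF1 forms trimers, binds heat shock elements upstream of its targets and raises their transcription. Metals that react with protein thiols are among the inducers, and zinc ions also induce the metallothioneins, small metal-binding proteins, through another factor, MTF1. The cytosolic chaperones work in teams. Hsp70 proteins bind unfolded stretches, J-domain proteins deliver the substrates to them, Hsp110 and BAG proteins release the nucleotide, Hsp90 proteins finish the folding of kinases and receptors, and small heat shock proteins hold unfolded proteins without using ATP. Secretory cells such as PCs need folding capacity above all in the endoplasmic reticulum, and its chaperones are not in the set.

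The list mixes genes that most cells transcribe at rest with genes that heat shock switches on, and the sequence upstream of the start of transcription was read for the binding letters of HSF1. The 250 bases before the start of the canonical transcript were taken from GRCm39 with the GENCODE M39 annotation, for the plus or minus strand of each gene. A pair of heat shock units was searched as GAANNTTC or TTCNNGAA, each of which reads the same on both strands. Such a pair stood in 4 of the 10 genes, Hspa1a, Hspa1b, Hsph1 and Hspb1, against 12.3% of the windows of 21757 protein-coding genes. Below are the windows of the 3 genes with the fewest counts in PCs, each of which held a pair, and of Bag3, a classical heat shock gene with a high level in PCs and no pair in this window. Capitals mark the pairs.
Hspa1a, chr17:35191133-35191382, minus strand: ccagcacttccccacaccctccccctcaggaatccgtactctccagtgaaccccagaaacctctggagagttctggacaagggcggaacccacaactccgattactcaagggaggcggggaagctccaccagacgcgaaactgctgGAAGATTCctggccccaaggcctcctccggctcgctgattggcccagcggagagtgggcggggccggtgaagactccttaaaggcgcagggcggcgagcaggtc
Hspa1b, chr17:35178215-35178464, minus strand: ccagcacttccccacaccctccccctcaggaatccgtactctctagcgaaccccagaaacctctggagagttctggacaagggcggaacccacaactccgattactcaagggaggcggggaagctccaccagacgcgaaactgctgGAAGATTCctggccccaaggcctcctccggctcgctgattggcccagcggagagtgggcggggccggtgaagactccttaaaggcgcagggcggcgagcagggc
Hspb1, chr5:135916510-135916759, plus strand: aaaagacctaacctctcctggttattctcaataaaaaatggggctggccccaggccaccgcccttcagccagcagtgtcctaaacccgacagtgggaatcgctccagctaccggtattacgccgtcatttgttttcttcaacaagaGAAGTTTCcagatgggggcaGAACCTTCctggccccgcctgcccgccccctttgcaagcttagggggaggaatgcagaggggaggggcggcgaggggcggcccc
Bag3, chr7:128125033-128125282, plus strand: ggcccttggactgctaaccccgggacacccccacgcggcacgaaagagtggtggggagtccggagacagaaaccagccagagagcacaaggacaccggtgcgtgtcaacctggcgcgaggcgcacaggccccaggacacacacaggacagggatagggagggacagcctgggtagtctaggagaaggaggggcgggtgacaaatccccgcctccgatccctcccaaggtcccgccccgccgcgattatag
The windows of Hspa1a and Hspa1b differed at 3 of 250 bases, and each held 1 pair that began at position -104, counted back from -1 as the last base before the start of transcription. Hspb1 held 2 pairs, which began at -104 and -84, and Hsph1 held 1 at -28. A run of 3 units was in none of the 10 windows and in 0.349% of all windows. The core of the metal response element, searched as TGCACNC or TGCGCNC on both strands, was in none of the 10 windows and in 21.9% of all. These matches are descriptions of letters in a short window, not of binding.

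Library totals were 10733407 to 15101627 counts with Milli-Q water and 10623658 to 13167276 with zinc. Levels are given as CPM, the counts of a gene over a library size scaled by the TMM method, times 1e6, which sets the bulk of genes level between libraries. PC markers (Lyz1, Defa24, Defa30, Itln1, Mmp7 and Ang4, all 6 counted) summed to 401429 to 716768 CPM with Milli-Q water and to 385927 to 486234 CPM with zinc, and 6 leukocyte and stroma markers to 0.655 CPM at most, with Col1a1 at 0 counts. Markers of goblet cells (5 genes, all counted) summed to 3621 to 5841 CPM with Milli-Q water and 5617 to 10224 CPM with zinc. Of their 680422 counts Muc2 held 521353, and the 5 genes did not move together. The log2 fold changes were 0.84 for Muc2, 1.81 for Fcgbp and 1.80 for Clca1, but -0.13 for Tff3 and -0.20 for Agr2. Markers of crypt stem cells (4 genes, all counted) summed to 206 to 386 CPM with Milli-Q water and 204 to 736 CPM with zinc. The part of goblet and stem cells in the values below was not tested. The library labelled zinc replicate 3 stood apart before any heat shock gene was read. Its 8 TNF target genes, all counted, summed to 75.2 CPM, against 1191 to 1423 CPM in the other 7 libraries, although its label gives TNF. Whether this mouse met TNF as the others did was not tested. Its 8 immediate early genes summed to 333.5 CPM, against 663 to 1050 CPM elsewhere, and its 6 enterocyte markers to 87.7 CPM, against 2.02 to 22.5 CPM elsewhere. The estimates of the heat shock genes and of the network lists are therefore given with and without it. The metallothioneins Mt1 and Mt2, read as a check of the zinc label, summed to 426, 156, 37.9 and 49.0 CPM in zinc replicates 1 to 4, against 40.0 to 91.1 CPM with Milli-Q water, so by these 2 genes 2 of 4 zinc libraries lay above every Milli-Q library. Neither passed the test across all genes, with log2 fold changes of 1.20 for Mt1 (SE 0.563, edgeR adjusted p = 0.485) and 2.57 for Mt2 (SE 1.02, edgeR adjusted p = 0.485).

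Together the 10 genes held 0.0835 to 0.107% of the counts with Milli-Q water and 0.0756 to 0.115% with zinc. To compare genes with each other, counts were divided by the exon length of the gene and scaled to the same sum in each library (TPM). In median TPM over the 8 libraries the order was Hsp90ab1 (67.7), Hspa8 (39.3), Bag3 (28.8), Hsp90aa1 (10.8), Dnajb1 (5.23), Hsph1 (1.28), Hsf1 (1.13), Hspa1b (0.189), Hspa1a (0.0333) and Hspb1 (0). Each gene of the first 5 lay above the next in all 8 libraries, as did Hsf1 above Hspa1b. Hsph1 lay above Hsf1 in 6 libraries, Hspa1b above Hspa1a in 7 and Hspa1a above Hspb1 in 5, so the neighbours in these pairs were not ordered in every library. Dividing by the longest transcript instead kept the order of the medians and raised that of Hspa8 to 71.5 TPM and that of Hsp90ab1 to 81.0 TPM. On that scale Hsp90ab1 lay above Hspa8 in 6 of 8 libraries, with Hspa8 above in Milli-Q replicates 3 and 4, so the order of the leading pair depended on the length used. Within the 10 genes the constitutive Hsp90 and Hsp70 thus had the highest medians, whereas the heat-inducible Hsp70 genes and Hspb1 were at or near 0. The canonical transcripts of Hspa8 (2394 bases) and Hsp90ab1 (2703 bases) are shorter than their longest ones (4529 and 4278 bases). Levels per canonical transcript were not computed, so the order of these genes and their distance from Bag3 hold only for the lengths used.

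**Figure D1:**
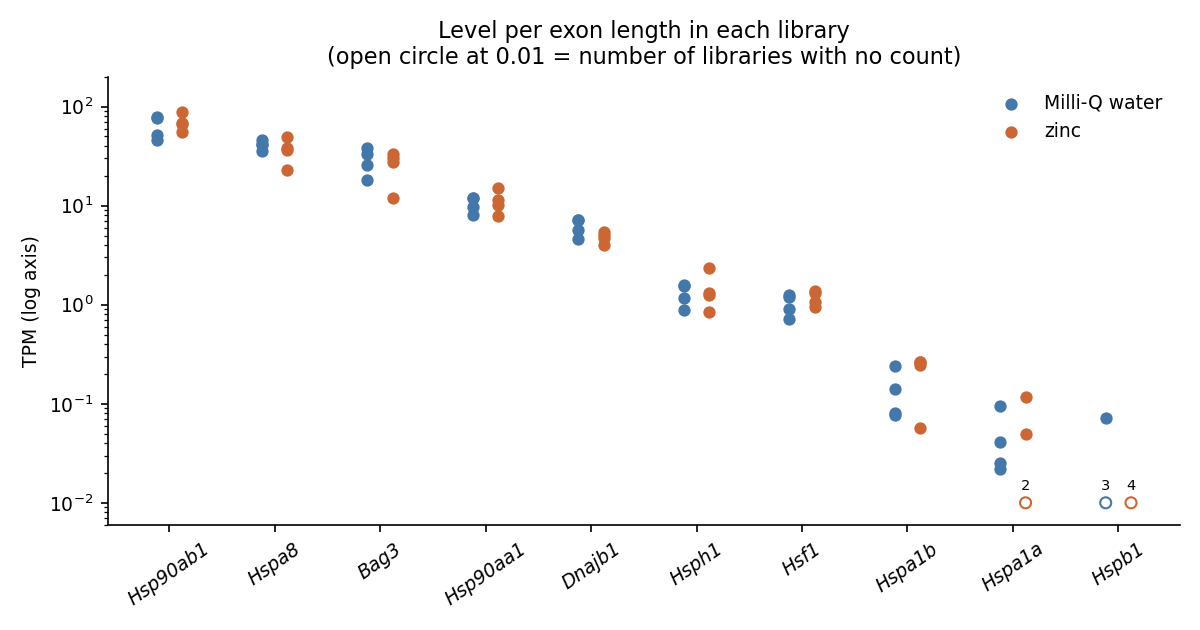
TPM (counts per exon length, scaled to the same sum in each library, log axis) of the 10 heat shock genes in each of the 8 libraries, with Milli-Q water in blue and zinc in orange; open circles at 0.01 stand for libraries with no count, and their number is printed above. Hsp90ab1, Hspa8 and Bag3 lead with medians of 67.7, 39.3 and 28.8 TPM, and Hspa1b, Hspa1a and Hspb1 reach 0.266 TPM at most.

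How far these levels can be read depends on sequence that genes share, because the sources used here do not give the rule for reads with several matches. In windows of 75 bases along the canonical transcript, 67.9% of those of Hspa8 were found again elsewhere in the genome, and so were 55.8% of those of Hspa1b, 54.2% of Hspa1a, 52.1% of Hsp90aa1 and 49.4% of Hspb1. The share was 0.989% for Hsp90ab1 and 0 for Hsf1, Hsph1, Dnajb1 and Bag3. If reads with several matches were left out, the levels of the first 5 genes are underestimates, and if they were divided, a gene may hold reads of its copy. Their levels and their place in the order are uncertain for that reason. Windows were cut from spliced transcripts and looked up in the genome. A window across an exon junction is absent from its own gene there, so a single copy of it elsewhere was not counted. The shares of spliced genes may therefore be too low. Hspa1a and Hspa1b lie 9.951 kb apart on chromosome 17 and differed at 8 of the aligned coding bases (99.6% identity), with 3 further bases of Hspa1b in a gap and no difference among the aligned amino acids. Even so 1324 of 2893 windows of Hspa1a, 1205 of 2729 of Hspa1b and 426 of 842 of Hspb1 were not found a second time. Each gene thus had stretches where a read could be placed, although the count for Hspb1, a spliced gene, includes windows across exon junctions.

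**Figure D2:**
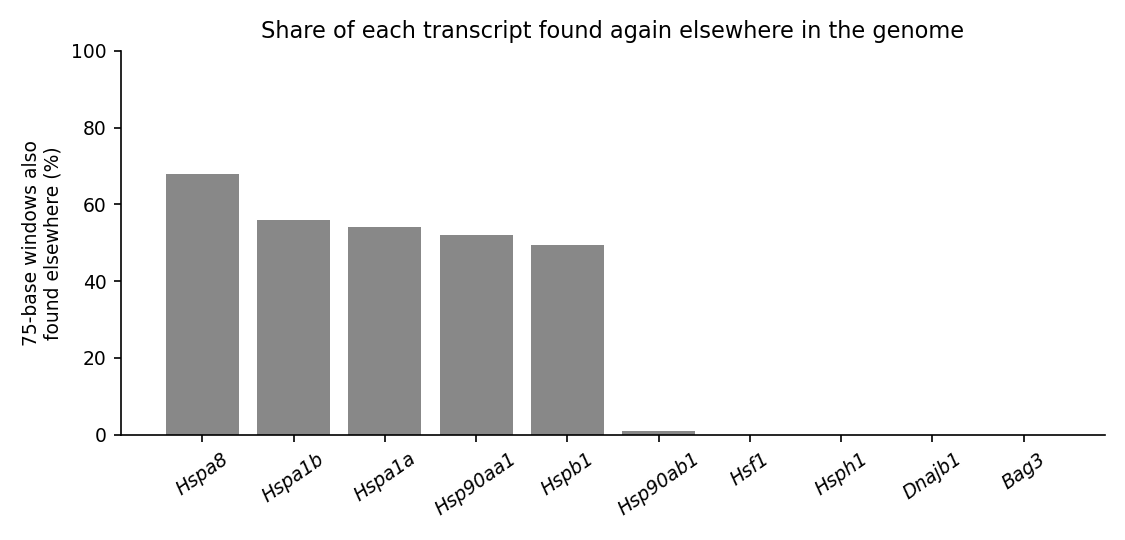
Percentage of 75-base windows along the canonical transcript of each heat shock gene that occur again elsewhere in GRCm39. Hspa8, Hspa1b, Hspa1a, Hsp90aa1 and Hspb1 share 49.4 to 67.9% of their windows, and the other 5 genes share 0.989% or less. Shares of spliced genes may be too low, because a single genome copy of a window across an exon junction was not counted.

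No heat shock gene passed the test between zinc and Milli-Q water. Of the 10 genes, 7 had enough counts to be tested (Hsf1, Hspa8, Hsph1, Dnajb1, Hsp90aa1, Hsp90ab1 and Bag3), and 0 had an adjusted p under 0.05 in edgeR's quasi-likelihood test over 10707 genes. The background was the same, with 0% of all tested genes called. An unadjusted p under 0.05 was found for 1 of the 7, Dnajb1, against 10.2% of all genes, and against 3.78% of all genes for a lower level in zinc. Of the 7 genes 6 had an estimate below 0 and 1 above, while 49.2% of all genes lay below 0. The median of the 7 was -0.091 on the log2 scale, against 0.0062 over all genes. This count depended on the setting. It was 5 of 7 without zinc replicate 3 (median -0.049), 4 of 7 without zinc replicate 4 or under upper-quartile factors, and 3 of 7 under limma-voom (median 0.0033). Under upper-quartile factors the median of the 7 was -0.053, against 0.0555 over all genes. As RNA was taken from all sorted cells of a mouse together, less RNA per cell and fewer cells that make it cannot be told apart.

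Hsf1 (ENSMUSG00000022556, GRCm39 chromosome 15, 76361558 to 76388138, plus strand), the regulator of the response, was read at 11.5, 11.4, 11.7 and 12.0 CPM in Milli-Q replicates 1 to 4 and at 11.5, 11.8, 14.3 and 10.2 CPM in zinc replicates 1 to 4. The Milli-Q libraries lay close together and the zinc libraries on both sides of them, with the highest value in zinc replicate 3. The means were 11.6 ± 0.271 CPM with Milli-Q water and 12.0 ± 1.70 CPM with zinc (SD, n = 4). The log2 fold change was 0.043 with an SE of 0.146 (edgeR adjusted p = 0.912). Its 95% interval ran from -0.28 to 0.37, or from 0.824 to 1.29 as a fold, and without zinc replicate 3 the estimate was -0.049. Exons of Hsf1 share 522 bases with Bop1 and 2486 with Dgat1, both on the opposite strand, and the sources used here do not say whether the strand of the stranded library was used in counting. Those of Hsp90ab1 share 266 bases with Slc35b2 and 1617 with Gm56882, and those of Hsph1 share 956 with Gm73411, also on the opposite strand. Hspa1a, Hspa8, Hsp90aa1 and Bag3 have exon overlaps with opposite-strand noncoding genes too. On its own strand Hspa8 shares 86, 86 and 90 exon bases with Snord14c, Snord14d and Snord14e, which had 0 counts each.

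The Hsp70 proteins split by regulation. Hspa8 (ENSMUSG00000015656, chromosome 9, 40711630 to 40731039, plus strand), the constitutive Hsp70 that also uncoats clathrin vesicles, was read at 380, 334, 499 and 464 CPM in Milli-Q replicates 1 to 4 and at 357, 385, 207 and 341 CPM in zinc replicates 1 to 4. The groups overlapped, and zinc replicate 3 was the lowest of the 8. The means were 419 ± 75.7 and 322 ± 78.9 CPM (SD, n = 4), and the difference did not pass the test (log2 fold change -0.38, SE 0.220, interval -0.87 to 0.11, edgeR adjusted p = 0.520). Without zinc replicate 3 the estimate was -0.21. It was -0.15 without Milli-Q replicates 3 and 4, the highest libraries for this gene, and -0.14 under limma-voom.

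Hspa1a (ENSMUSG00000091971, chromosome 17, 35188166 to 35191132, minus strand) and Hspa1b (ENSMUSG00000090877, chromosome 17, 35175412 to 35178214, minus strand) encode the Hsp70 that heat and other proteotoxic stress induce. Hspa1a had 4, 1, 1 and 2 counts in Milli-Q replicates 1 to 4 and 4, 0, 0 and 2 counts in zinc replicates 1 to 4. Hspa1b had 3, 6, 3 and 11 counts in the Milli-Q libraries and 8, 2, 11 and 10 in the zinc libraries. Both were below the expression filter and were not tested alone. Because reads can pass from one copy to the other, the 2 genes were also summed. The sum was 7, 7, 4 and 13 counts with Milli-Q water and 12, 2, 11 and 12 counts with zinc, so the groups overlapped and the lowest library was zinc replicate 2. In CPM the sum was 0.607 ± 0.290 with Milli-Q water and 0.752 ± 0.431 with zinc (SD, n = 4), with p = 0.571 in a two-sided exact permutation test over 70 assignments, whose smallest p is 0.0286. In the fit over 10708 features the sum differed by 0.29 on the log2 scale (SE 0.591, edgeR adjusted p = 0.852). Its interval of -1.02 to 1.60 spans folds of 0.493 to 3.02, and without zinc replicate 3 the estimate was 0.26. A library with no count for a gene could still hold up to 3 counts of it by counting error alone. For Hspa1a this equals 0.215 CPM in zinc replicate 2 and 0.211 CPM in zinc replicate 3.

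The genes most like the summed pair over the 8 libraries were looked up as a description, on values that rest on few counts. By the root mean square difference of centred log2 CPM over 8 libraries, the nearest of 10700 genes were Car5b (0.166), Rpgrip1l (0.226), Pcdhga7 (0.230), Gm11175 (0.233) and Rhbdd3 (0.238), where the median gene was at 0.525 and the spread of the pair itself was 0.429. The heat shock genes of the set were left out of this search beforehand, so it does not show how the pair varied with them.

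Hsph1 (ENSMUSG00000029657, chromosome 5, 149537636 to 149560156, minus strand), the Hsp110 protein that exchanges nucleotide on Hsp70, was read at 16.8, 15.8, 16.0 and 16.9 CPM in Milli-Q replicates 1 to 4 and at 15.7, 23.3, 14.4 and 10.2 CPM in zinc replicates 1 to 4. The 4 Milli-Q values were within a narrow range, and the zinc libraries held both the highest and the lowest value. The means, 16.4 ± 0.559 and 15.9 ± 5.48 CPM (SD, n = 4), differed by -0.041 on the log2 scale (SE 0.219, edgeR adjusted p = 0.948), and the sign of this estimate turned under upper-quartile factors, limma-voom and without zinc replicate 3 (0.014) or 4.

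Dnajb1 (ENSMUSG00000005483, chromosome 8, 84334811 to 84339820, plus strand), the J-domain protein that hands substrates to Hsp70 and helps to switch HSF1 off, had the largest difference of the 7 tested genes. It was read at 26.1, 24.4, 28.4 and 28.2 CPM in Milli-Q replicates 1 to 4 and at 20.5, 16.0, 15.4 and 22.3 CPM in zinc replicates 1 to 4. Every zinc library lay below every Milli-Q library in CPM, which was so for 3.12% of all tested genes in this direction and for 5.87% in either direction. The means were 26.8 ± 1.90 and 18.6 ± 3.36 CPM (SD, n = 4), with a fold of 0.692 and a log2 fold change of -0.53 (SE 0.152, interval -0.87 to -0.19). This difference did not pass the adjustment over all genes (unadjusted p = 0.00542, rank 76 of 10707, edgeR adjusted p = 0.485). Without zinc replicate 3 the estimate was -0.45 (SE 0.142), and each library left out in turn gave an estimate between -0.64 and -0.45. The separation of the groups rested on the TMM scaling. On the unscaled library totals Dnajb1 ran from 21.5 to 28.2 with Milli-Q water and from 16.7 to 21.9 CPM with zinc, and in TPM from 4.64 to 7.23 and from 3.96 to 5.44, so on both scales the groups overlapped while the zinc mean stayed lower.

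Bag3 (ENSMUSG00000030847, chromosome 7, 128125283 to 128148705, plus strand), a nucleotide exchange factor that links Hsp70 to selective autophagy, was read at 96.6, 79.8, 77.4 and 88.7 CPM in Milli-Q replicates 1 to 4 and at 78.2, 77.9, 32.8 and 85.6 CPM in zinc replicates 1 to 4. Of the zinc libraries 3 lay within the Milli-Q range, and zinc replicate 3 lay far below all others. The means of 85.6 ± 8.75 and 68.6 ± 24.2 CPM (SD, n = 4) differed by -0.32 on the log2 scale (SE 0.260, interval -0.90 to 0.26, edgeR adjusted p = 0.615). Without zinc replicate 3 the difference was -0.083 (SE 0.121, edgeR adjusted p = 0.883). The part of the low TNF target and immediate early gene levels of this library in its Bag3 level was not tested.

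The Hsp90 genes showed no difference beyond the spread between mice. Hsp90aa1 (ENSMUSG00000021270, chromosome 12, 110656842 to 110669166, minus strand), the more inducible form, was read at 53.1, 50.6, 59.8 and 58.2 CPM in Milli-Q replicates 1 to 4 and at 56.9, 62.5, 37.3 and 51.4 CPM in zinc replicates 1 to 4. The groups overlapped, with the highest library in zinc replicate 2 and the lowest in zinc replicate 3. The means were 55.4 ± 4.33 and 52.0 ± 10.8 CPM (SD, n = 4). The log2 fold change was -0.091 (SE 0.169, interval -0.47 to 0.28, edgeR adjusted p = 0.837), and without zinc replicate 3 it was 0.046.

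Hsp90ab1 (ENSMUSG00000023944, chromosome 17, 45878552 to 45891949, minus strand), the constitutive form, was read at 412, 382, 410 and 366 CPM in Milli-Q replicates 1 to 4 and at 399, 426, 376 and 322 CPM in zinc replicates 1 to 4. Its 8 libraries spanned a fold of 1.32, the narrowest span among the 7 tested genes, and the groups overlapped. The means were 392 ± 22.3 and 381 ± 44.0 CPM (SD, n = 4). The log2 fold change was -0.043 (SE 0.147, interval -0.37 to 0.28, edgeR adjusted p = 0.915), and without zinc replicate 3 it was -0.031. Per exon length the constitutive form stood 5.35 to 8.61 times above Hsp90aa1, with the highest ratio in zinc replicate 3. Per longest transcript the ratio was 5.74 to 9.24. It would be too high if reads with several matches were left out, as 52.1% of Hsp90aa1 windows were found elsewhere, against 0.989% for Hsp90ab1.

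Hspb1 (ENSMUSG00000004951, chromosome 5, 135916760 to 135918417, plus strand), a small heat shock protein, had 1 count in all, in Milli-Q replicate 3, and 0 in the other 7 libraries. It was not tested, and in the 7 libraries without a count counting error allows up to 3 counts, or 0.179 to 0.281 CPM.

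**Figure D3:**
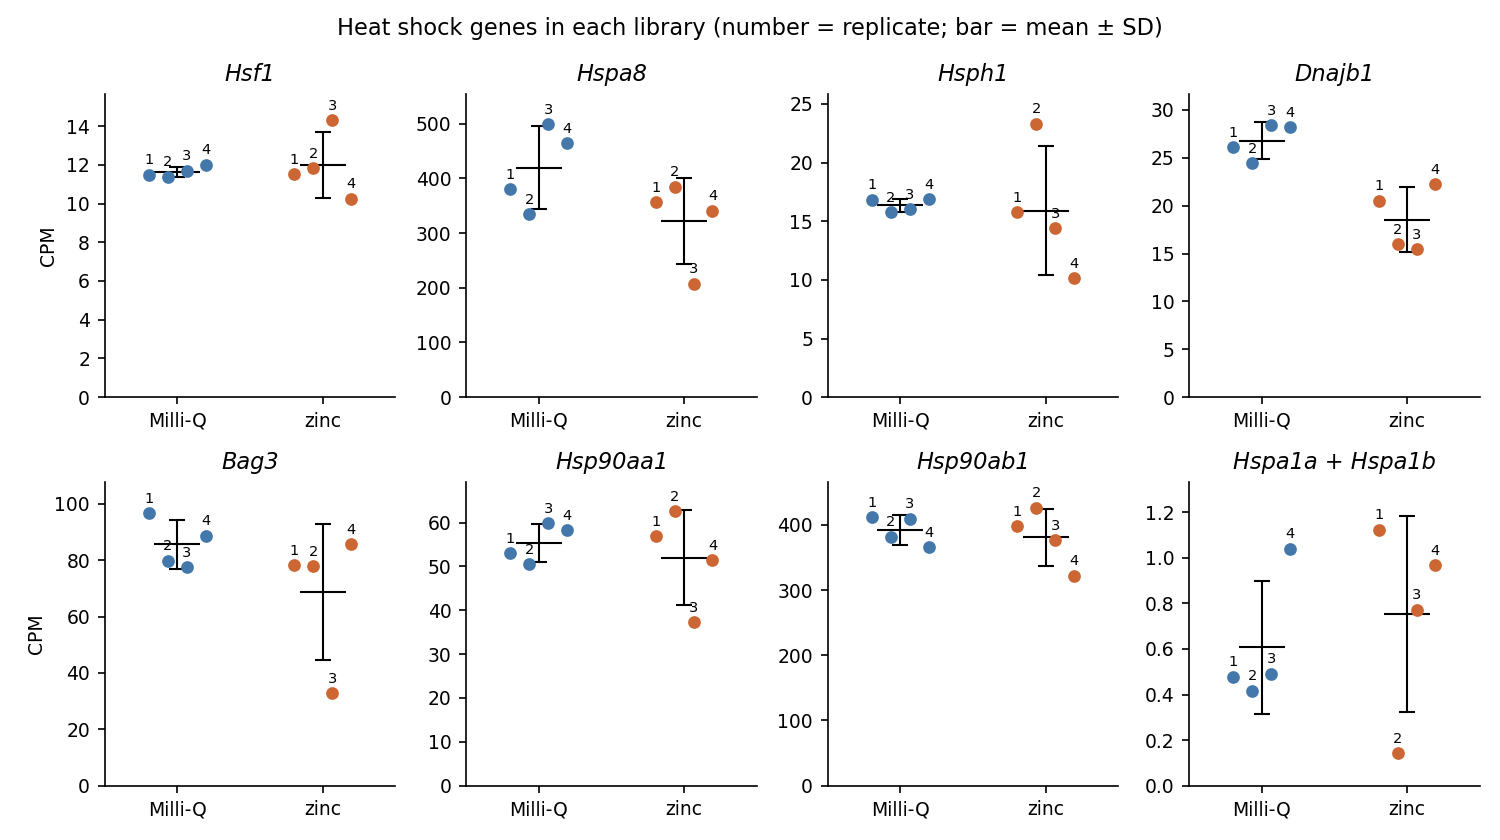
CPM (on TMM-scaled library sizes, each axis from 0) of the 7 tested heat shock genes and of the sum of Hspa1a and Hspa1b in the 4 Milli-Q water (blue) and 4 zinc (orange) libraries. Numbers are replicates, bars are mean ± SD. Dnajb1 is the panel where the groups do not overlap on this scale, and zinc replicate 3 is the lowest point for Hspa8, Dnajb1, Bag3 and Hsp90aa1.

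The zinc libraries were the more spread group for most tested genes. The SD of log2 CPM was larger with zinc for 7 of 7 heat shock genes, against 65.5% of all tested genes. Without zinc replicate 3 it was larger for 5 of 7, against 45.8% of all. Zinc replicate 3 was the lowest of the 8 libraries for 4 of 7 heat shock genes (57.1%), Hspa8, Dnajb1, Hsp90aa1 and Bag3, and for 29.97% of all tested genes, while Hsf1 was highest there.

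The wider network of cytosolic, nuclear and mitochondrial chaperones and co-chaperones, a list of 69 genes, also held no gene past the test. Of these, 60 were tested, 34 had an estimate below 0 and 26 above, and the median was -0.032 on the log2 scale, where 49.2% of all genes lay below 0. The split was 31 below and 29 above without zinc replicate 3 (median -0.014), and 29 and 31 without Milli-Q replicate 3. It was 28 and 32 under upper-quartile factors (median 0.018), and 30 and 30 under limma-voom. Upper-quartile factors also moved the median of all genes, from 0.0062 to 0.0555, so the network median stayed below it. The number with an adjusted p under 0.05 was 0 in edgeR. An unadjusted p under 0.05 was found for 0 of the 60 in that test, against 10.2% of all genes, and for 2 of 60 without zinc replicate 3, 4 of 60 without zinc replicate 4 and 6 of 60 under limma-voom. In 0 of the 60 did the groups not overlap, against 5.87% of all genes. The 3 genes of smallest p below 0 were Grpel1, the exchange factor of the mitochondrial Hsp70 (log2 fold change -0.46, SE 0.209, edgeR adjusted p = 0.485), Sugt1, an Hsp90 adaptor (-0.36, SE 0.177), and Ptges3, the p23 co-chaperone of Hsp90 (-0.29, SE 0.149). The 3 of smallest p above 0 were Fkbp4 (0.51, SE 0.233, edgeR adjusted p = 0.485) and Fkbp5 (0.53, SE 0.261), immunophilins that bind Hsp90 with steroid receptors, and Hspa4l, an Hsp110 protein (0.58, SE 0.287). Without zinc replicate 3 the estimates were -0.36 for Grpel1, -0.28 for Sugt1, -0.18 for Ptges3, 0.29 for Fkbp4, 0.62 for Fkbp5 and 0.62 for Hspa4l. Among the HSF1 relatives, Hsf2 was read at 0.985 to 1.37 CPM with Milli-Q water and 0.717 to 1.61 CPM with zinc, and Hsf4 at 0.615 to 1.64 and 1.22 to 1.85 CPM.

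Within that network the 8 subunits of TRiC, the ring chaperonin that folds actin and tubulin, all had estimates below 0, from -0.29 to -0.12 with a median of -0.23, where 49.2% of all genes lay below 0. None of the 8 had an unadjusted p under 0.05, the median was -0.18 without zinc replicate 3 and -0.12 without Milli-Q replicate 3, 7 of 8 were below 0 under limma-voom, and 6 of 8 were below 0 without Milli-Q replicates 3 and 4. The list of other Hsp70 and Hsp110 chaperones went the other way. Of its 4 tested genes 1 was below 0 and 3 above, with a median of 0.35, and 0.30 without zinc replicate 3. None of the 4 had an unadjusted p under 0.05. Of the 10 other J-domain proteins 5 were below 0 and 5 above, with a median of -0.068. The split was 8 and 2 under limma-voom, and 6 and 4 without zinc replicate 3. Of the 12 Hsp90 co-chaperones 7 were below and 5 above, with a median of -0.026. Their split turned to 3 and 9 under limma-voom, and to 5 and 7 under upper-quartile factors and without zinc replicate 3. Under upper-quartile factors their median was 0.017, against 0.0555 over all genes. The 9 untested genes of the network were Hsf5, Hspa1l, Hspa12a, Hspa12b, Hspb2, Hspb3, Hspb7, Hspb9 and Cryab, and 6 of these had no count in any library. Of the 7 other small heat shock proteins, Hspb8, the partner of Bag3, had the highest level, at 20.6 ± 2.18 CPM with Milli-Q water and 19.4 ± 7.40 CPM with zinc (SD, n = 4). A pair of heat shock units stood upstream of 10 of the 69 network genes (14.5%).

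**Figure D4:**
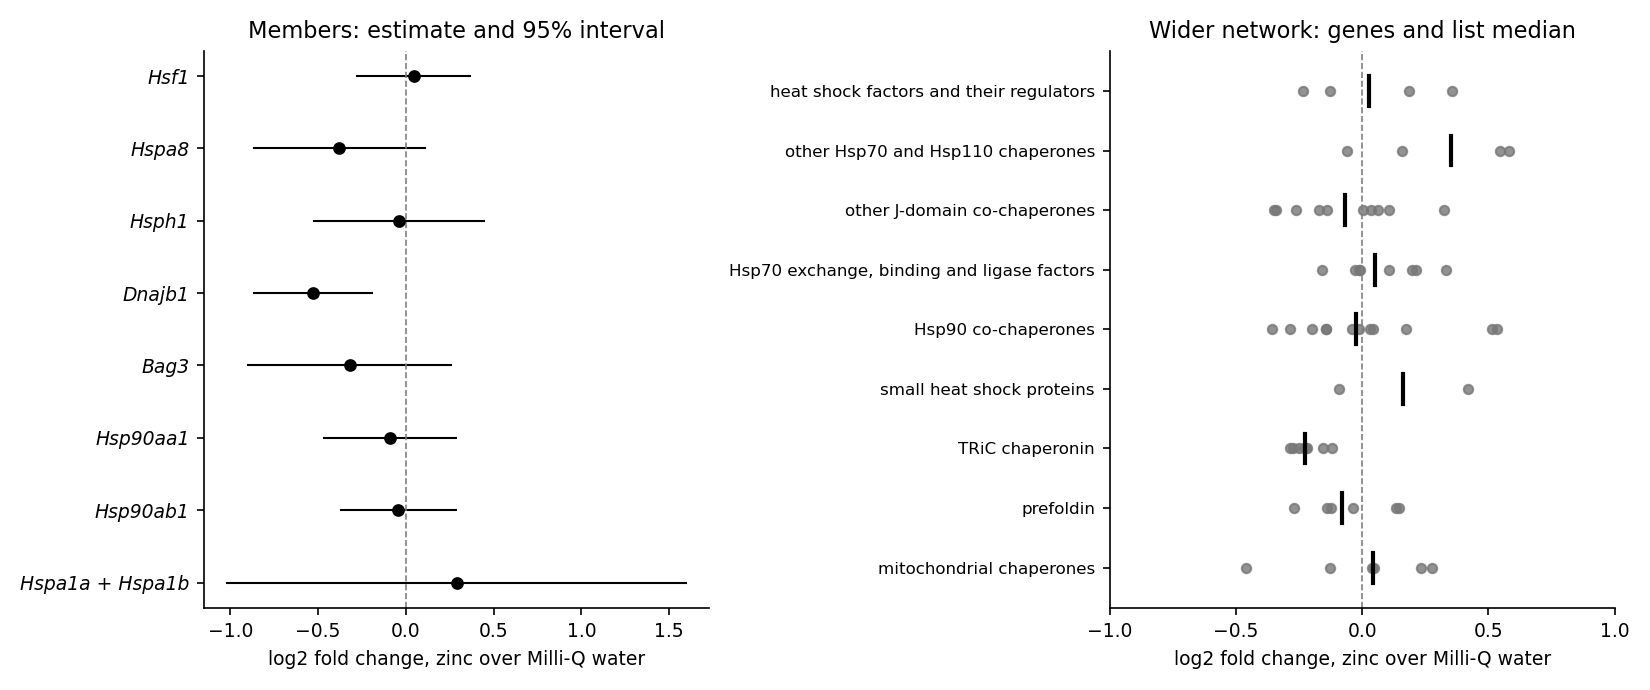
Log2 fold change, zinc over Milli-Q water, with its 95% interval for the 7 tested heat shock genes and the sum of Hspa1a and Hspa1b (left), and for single tested genes of the wider network by list with the list median as a bar (right). The interval of Dnajb1 lies below 0 before adjustment, from -0.87 to -0.19, those of the others include 0, and the 8 TRiC subunits lie between -0.29 and -0.12.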

How the data were processed

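PCs from 8 mice (4 Milli-Q water, 4 zinc, all labelled as given TNF) were grouped by their deposited labels, and all 8 were used, among them zinc replicate 3, whose TNF target genes went against its label. The authors deposited raw read counts per Ensembl gene as 1 table, which they did not normalize. The submitters' processing notes name FastQC 0.12.0, STAR 2.7.10a, DESeq2 and the build mm39. The counter, annotation release, strand setting and rule for reads with several matches are not named in the sources used here. The methods of the study name DESeq2 for genome-wide expression analyses without stating a design. Here edgeR was the main test and DESeq2 an alternative.

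Identifiers were matched to GENCODE M39 (GRCm39). Of 55414, 54749 matched, and the other 665 held 0.00443% of counts. Totals were 10623658 to 15101627 counts. Zinc and Milli-Q libraries were compared in edgeR 4.0.16 under R 4.3.3, by its quasi-likelihood test with TMM factors. Its default expression filter kept 10707 genes (99.89% of counts). Benjamini-Hochberg adjusted p-values were read at 0.05, and the biological coefficient of variation was 0.269. The sum of Hspa1a and Hspa1b was fitted in a table where it replaced both genes, and its CPM was compared by an exact permutation test. Library pairs differed beyond sampling noise (smallest chi-square per degree of freedom 6.05 over 28 pairs), so each counted as 1 replicate. The edgeR step was tested on simulated data. TPM used union exon length.

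Alternatives were upper-quartile factors, DESeq2 size factors, TMM without Defa genes, a stricter filter or none, DESeq2 1.42.0, limma-voom (limma 3.58.1) with sample weights, a replicate block, each library left out, and 6 libraries without Milli-Q replicates 3 and 4, whose counts followed transcript length differently (Spearman -0.284 and -0.293, others 0.0068 to 0.224). The members and lists were chosen with earlier results of these data known. Genes named were the 10 members, Mt1 and Mt2, the 3 network genes of smallest p in each direction as none passed, and the 5 genes most like the Hspa1a and Hspa1b sum. Other genes were named after their values were seen.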

Additional observations from a re-analysis of the deposited data

Results flagged for a closer look

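Of 19 groups of 4 libraries searched for a sample far from the others, 3 had one, where chance gives about 1 in 20. The group of Hspb1, with 1 count in 1 library and 0 in 3, could not come out otherwise, and without it 2 of 18 groups had one, against 0.9 by chance. Bag3 stood at 32.8 CPM in zinc replicate 3, against 77.9 to 85.6 CPM in the other 3 zinc libraries. Hspa1b stood at 0.143 CPM in zinc replicate 2, against 0.750 to 0.806 CPM in the other 3, and rested on 2 counts. Hspb1 stood at 0.123 CPM in Milli-Q water replicate 3 on 1 count, with 0 in the other 3 Milli-Q libraries.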

How the results depend on the processing

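No setting called a heat shock gene or a gene of the wider network. Over all genes the count of calls was 0 in every edgeR and limma-voom setting and 4 under DESeq2 (Lrp1, Cd74, Slc14a1 and Ms4a12, named after their values were seen), and 1092 genes had an unadjusted p under 0.05 in the main edgeR test. Dnajb1, Hspa8 and Bag3 stayed below 0 under all 18 alternatives each. The unadjusted p of Dnajb1 was 0.0533 in edgeR without Milli-Q replicates 3 and 4 and under 0.05 in the other settings. Estimates near 0 changed sign. Hsf1 was -0.049 without zinc replicate 3, in a range of -0.049 to 0.11 over libraries left out. Under upper-quartile factors Hsph1 was 0.0089 and Hsp90ab1 0.0084. In that setting the median of all genes moved too, from 0.0062 to 0.0555, and both genes stayed below it. Under limma-voom Hsph1 was 0.15, Hsp90aa1 0.10, Hsp90ab1 0.020 and the sum of Hspa1a and Hspa1b -0.48. With libraries left out Hsph1 ran from -0.29 to 0.12, Hsp90aa1 from -0.19 to 0.046, Hsp90ab1 from -0.10 to 0.024 and the sum of Hspa1a and Hspa1b from 0.038 to 0.68. The cause was not tested. With the replicate number as a block (replicate block), Dnajb1 was -0.54 and the sum 0.19, and no call changed; same-numbered libraries did not deviate together (correlations -0.039 to 0.034), so the numbers were not taken to pair mice. Depth limits Hspa1a, Hspa1b and Hspb1.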
